A study of Saccharomyces cerevisiae with 27 samples.

Results

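The 9 genes described here encode the main folding machinery of the yeast endoplasmic reticulum (ER) and the factor that controls it. They were taken by symbol, through their NCBI gene IDs, from the 5995 genes measured in each library: KAR2, LHS1, SCJ1, JEM1, PDI1, EUG1, MPD1, ERO1 and HAC1. All 9 were present and all passed the filter on low counts, which left 5692 genes. Messenger RNA of Saccharomyces cerevisiae was sequenced in 27 libraries, 3 for each combination of 3 strains with 3 carbon sources, and per the labels each replicate came from its own colony. BY4741, the parent, carries his3Δ1, leu2Δ0, met15Δ0 and ura3Δ0, and these 4 alleles are shared by all 3 strains. LCY001 adds a centromeric plasmid with HIS3 (CEN-HIS3). LCY002 adds a CEN-HIS3 plasmid that also carries 40 genes from the galactose, glycolysis and ergosterol pathways, arranged as an array, and 0 of the 40 are among the 9. Cultures were diluted to an OD600 of 0.1 in glucose, galactose or ethanol/glycerol and collected at about 1.0.

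Proteins that enter the ER are bound by the Hsp70 chaperone Kar2 (BiP), whose cycle is driven by J proteins and nucleotide exchange factors, while oxidoreductases form and rearrange their disulfide bonds. When unfolded proteins build up, the membrane kinase Ire1 removes an intron from HAC1 mRNA and the tRNA ligase Trl1 joins the exons. The Hac1 protein made from the spliced mRNA then activates chaperone genes. This is the unfolded protein response. HAC1 is therefore a transcription factor gene and not a chaperone gene, and gene counts do not separate its spliced from its unspliced mRNA.

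Library totals ran from 14484847 to 16219263 counts. Levels are given as CPM, counts on a common library size after TMM normalization, as mean ± SD of 3 libraries. Log2 fold changes are fitted values ± SE from edgeR's quasi-likelihood F test over all 27 libraries. A gene is called changed at a Benjamini-Hochberg adjusted p below 0.05 over the 5692 genes. The markers followed the labels: LEU2, URA3 and MET17 had 0 counts in all libraries, and HIS3 in glucose stood at 37.58 ± 2.15 CPM in BY4741, 1496 ± 26.3 in LCY001 and 506.7 ± 18.9 in LCY002. The protocol names overnight medium without histidine for all 3 strains, although BY4741 lacks a working HIS3. Whether the final cultures held histidine is not given in these sources, and a difference in medium between BY4741 and the plasmid strains was not tested. RNA came from whole cultures, so fewer cells with a transcript and less of it per cell cannot be told apart.

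The promoters are shown first because the known targets of Hac1 among these genes are recognised by short elements. In the 500 bases before the start codon, on either strand, 3 motifs were searched in the R64 genome: CAGCGTG, the core of the unfolded protein response element; TACGTG, the core of a second such element; and the heat shock element, 3 GAA units in alternating orientation with 2 bases between them. CAGCGTG lay in 2 of the 9 windows and in 139 of 6019 windows of all genes (2.31%). TACGTG lay in 3 of 9 and in 783 of 6019 (13%). The heat shock element lay in 1 of 9 and in 89 of 6019 (1.48%). The matches are given below 5′ to 3′ on the strand of the gene, with the match in capitals. A match on the other strand appears as its reverse complement.
KAR2, chrX:381156-381185, plus strand, 160 to 154 bases before the start codon: gaggaactggaCAGCGTGtcgaaaaagttg
LHS1, chrXI:296320-296349, plus strand, match on the other strand, 99 to 93 bases before the start codon: ataatatcgaaCACGCTGttataaaagtga
ERO1, chrXIII:13296-13325, minus strand, 139 to 134 bases before the start codon: aacgatacggagTACGTGtcataaaaactt
MPD1, chrXV:853162-853191, minus strand, match on the other strand, 102 to 97 bases before the start codon: aattaaaattgaCACGTAaaagttaaataa
EUG1, chrIV:1478422-1478451, plus strand, match on the other strand, 174 to 169 bases before the start codon: ttcccttcaaaaCACGTAaacgatagttgg
KAR2, chrX:381114-381143, plus strand, heat shock element, 205 to 193 bases before the start codon: ttttaataGAACCTTCTGGAAatttcaccc
The last match overlaps a second heat shock element on the other strand, 200 to 188 bases before the start codon. These are letter matches in fixed windows, and PDI1, SCJ1, JEM1 and HAC1 held none of the 3. Known targets of Hac1 are among the 9, so the shares are no test of enrichment.

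The intron that Ire1 removes is shown at its borders, because no value below distinguishes the mRNA with it from the mRNA without it. HAC1 (gene ID 850513, chrVI:75179-76147, plus strand) has 661 coding bases before the intron and 56 after it, and the intron has 252 bases. Exon bases are in capitals.
HAC1 start of the intron, chrVI:75825-75854: ATTGGCGTAATCCAGccgtgattacgatga
HAC1 end of the intron, chrVI:76077-76106: tgcttgtactgtccgAAGCGCAGTCAGGTT
HAC1 and EUG1 carry the submitters' added transcripts, 1 of 2 for HAC1 and 2 of 3 for EUG1. The length used for EUG1, 2058.29 to 2104.39 bases, exceeds its coding length of 1554. Whether the libraries keep the strand is not given, so counts of both genes are uncertain.

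Per length, PDI1 was the most abundant of the 9. Its mean over the 9 groups was 737.6 TPM (the deposited length-scaled unit), followed by EUG1 at 455.7, HAC1 at 375.6 and KAR2 at 166.6 TPM. ERO1 at 80.2, SCJ1 at 75.03, MPD1 at 57.94, JEM1 at 41.21 and LHS1 at 39.13 TPM were lower. The places of EUG1 and HAC1 rest on the uncertain counts described above, which also enter the summed levels. The summed level of the 9 genes was 3863 ± 124 CPM in BY4741, 3817 ± 160 in LCY001 and 3808 ± 111 in LCY002 in glucose. It was 3885 ± 133, 3504 ± 59.8 and 3394 ± 114 CPM in galactose, and 3062 ± 58.9, 3155 ± 112 and 2891 ± 135 CPM in ethanol/glycerol. The ratio of the highest to the lowest group mean in CPM was 2.1 for SCJ1, 2.09 for MPD1, 2.05 for ERO1 and 1.92 for KAR2. It was 1.5 for LHS1 and EUG1, 1.47 for JEM1, 1.4 for HAC1 and 1.37 for PDI1. EUG1 varied most between replicates, with a coefficient of variation of up to 19.7% in a group, against at most 9.16% for the other 8.

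**Figure D1:**
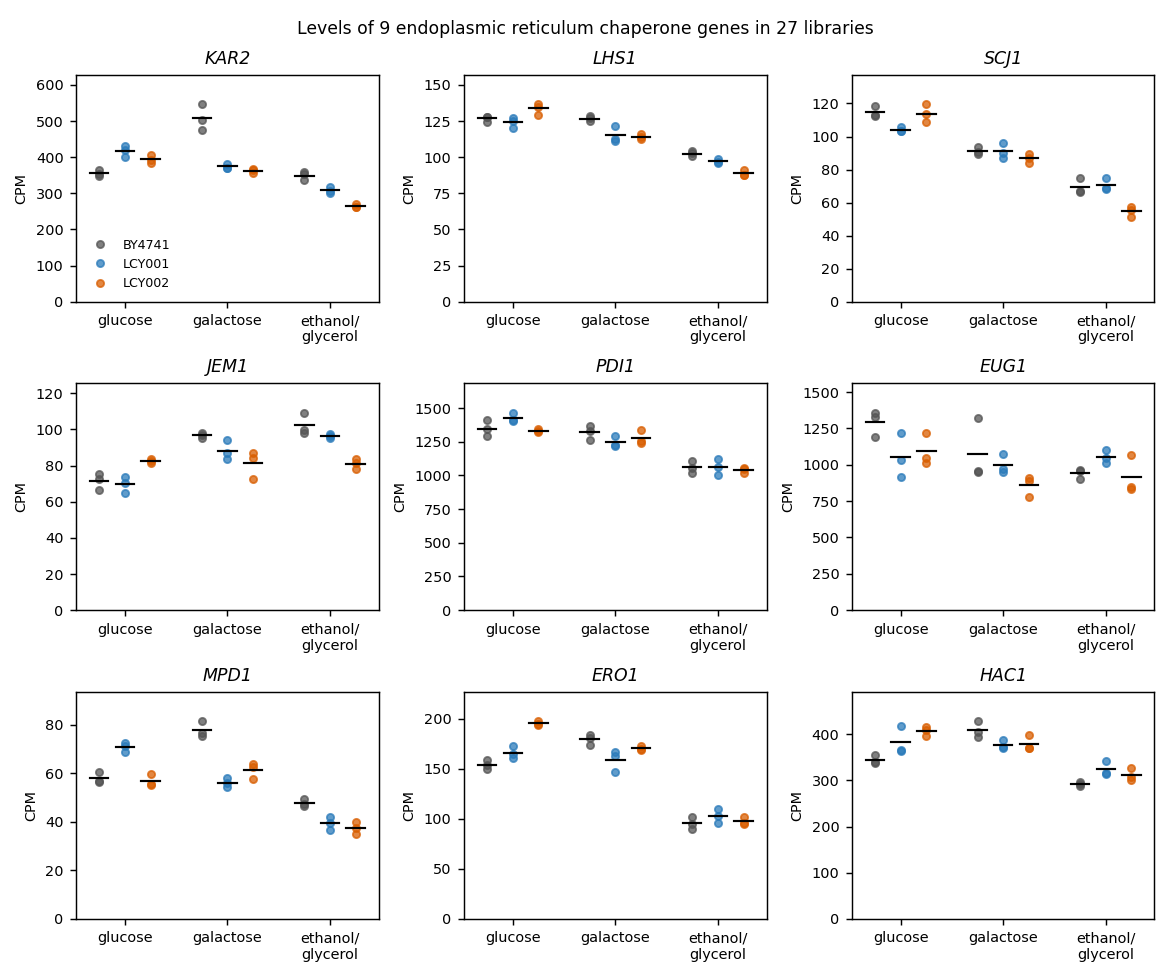
Each panel plots 1 gene in CPM against the carbon source, with points for libraries and black bars for the means of 3 libraries per strain. KAR2 stands highest in BY4741 in galactose (508.4 CPM), and ERO1 and SCJ1 stand lowest in ethanol/glycerol in all 3 strains.

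Across the carbon sources, ethanol/glycerol gave the lowest levels of most of these genes. Against glucose, 7 of 9 fell and JEM1 rose in BY4741, where 81.4% of all genes were called (43.7% higher and 37.7% lower). In LCY001 again 7 fell and JEM1 rose (all genes: 78.1% called, 40.2% higher and 37.9% lower). In LCY002 7 fell and 0 rose (all genes: 83.5% called, 43.2% higher and 40.4% lower). The medians over the 9 genes were -0.31, -0.43 and -0.57, beside medians of all genes of 0.05, 0.01 and 0.03. Against galactose, 7 fell and 0 rose in each strain, with medians of -0.39 in BY4741, -0.24 in LCY001 and -0.36 in LCY002. Of all genes 73.1%, 71.6% and 77% were called in the same order, with 37.2%, 35.3% and 36.6% higher and 36%, 36.3% and 40.4% lower.

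Galactose against glucose gave a different split in BY4741 and in the plasmid strains. In BY4741 KAR2, JEM1, MPD1, ERO1 and HAC1 rose and SCJ1 fell, with a median of 0.22 beside 0.01 for all genes (65.5% of all genes called, 33.9% higher and 31.7% lower). In LCY001 JEM1 rose and 5 of the 9 fell (median -0.11; all genes 59.3% called, 31.1% higher and 28.3% lower). In LCY002 5 fell and 0 rose (median -0.12; all genes 60.1% called, 33.7% higher and 26.4% lower). The 2 comparisons of a strain with its glucose libraries share those libraries, so their values are side by side and not independent. Scaling by total counts in place of TMM put the median of all genes more than 0.1 from 0 in 7 comparisons, against 0 comparisons with TMM: at 0.13, 0.12 and 0.11 for galactose against glucose, at 0.23, 0.13 and 0.21 for ethanol/glycerol against glucose in BY4741, LCY001 and LCY002, and at -0.13 for LCY002 against LCY001 in galactose. On that scale galactose against glucose called 1 gene higher and 1 lower in LCY001, and 1 higher and 3 lower in LCY002. Ethanol/glycerol against glucose called 2 higher and 4 lower in BY4741 and 1 and 7 in LCY002. Against galactose it called 1 and 7 in BY4741, where the median of all genes was 0.08. Without LCY002 glucose replicate 1, galactose against glucose called 3 genes in LCY002, all lower. With RLE size factors the galactose split in BY4741 was 5 higher and 2 lower, and ethanol/glycerol against galactose in LCY001 gave 1 higher and 7 lower.

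**Figure D2:**
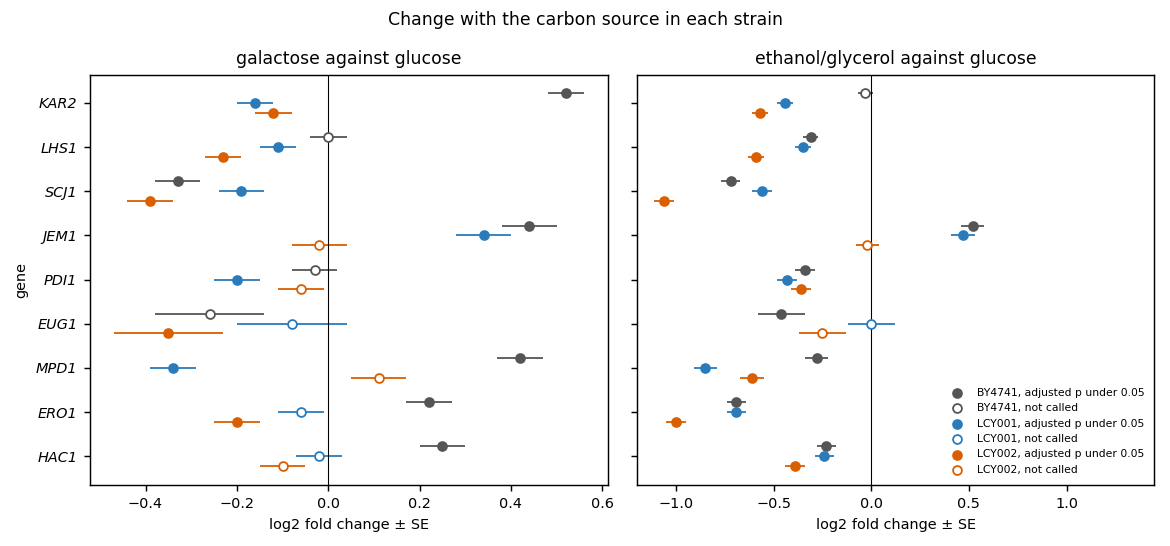
Log2 fold changes ± SE (horizontal axis) of the 9 genes against glucose in each strain, for galactose on the left and ethanol/glycerol on the right, filled where the adjusted p is below 0.05. KAR2 lies at 0.52 in BY4741 and at -0.16 and -0.12 in the plasmid strains in galactose, and SCJ1 reaches -1.06 in LCY002 in ethanol/glycerol.

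Between the strains the medians over the 9 genes ran from -0.21 to 0.09, smaller in size than those for ethanol/glycerol. They were not all smaller than the medians for galactose against glucose in the plasmid strains, -0.11 and -0.12. The strain differences turned with the carbon source. LCY001 against BY4741 in glucose had 3 genes higher and 2 lower (all genes: 55.4% called, 27.6% higher and 27.8% lower). The same comparison had 4 lower and 0 higher in galactose (all genes 38.9% called, 20.7% higher and 18.2% lower) and 2 lower and 0 higher in ethanol/glycerol (all genes 11.5% called, 6.59% higher and 4.92% lower), the second count being 1 in the fit of only those libraries. LCY002 against LCY001 in glucose had 4 higher and 1 lower (all genes: 53.7% called, 28.5% higher and 25.3% lower), and in ethanol/glycerol 4 lower and 0 higher (all genes 59.8% called, 29.4% higher and 30.4% lower). In galactose edgeR called 0 of the 9 between LCY002 and LCY001, with 38.2% of all genes called (20.2% higher and 18.1% lower). MPD1 alone had an unadjusted edgeR p below 0.05 there, and DESeq2 called 0. With total counts as the scale 6 were lower there, at a median of -0.15 for the 9 and -0.13 for all genes. In the fit of only these libraries EUG1 was called lower (-0.22, edgeR adjusted p = 0.0386). Without LCY002 galactose replicate 2, MPD1 was called (0.17, edgeR adjusted p = 0.0326), and without replicate 3, JEM1 (-0.17, edgeR adjusted p = 0.048).

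LCY002 against BY4741, which differ by plasmid and array together, had 4 of the 9 higher and 0 lower in glucose (all genes 38.4% called, 17.7% higher and 20.7% lower). In galactose 5 were lower (all genes 37.8% called, 19.8% higher and 18% lower) and in ethanol/glycerol also 5 (all genes 59.7% called, 28.2% higher and 31.5% lower), with 0 higher in either. The comparisons with BY4741 share its libraries, and those with LCY001 share that strain's libraries. The glucose splits depend on the scale: with total counts LCY002 against LCY001 had 1 higher and 3 lower, LCY001 against BY4741 had 5 higher and 0 lower, and LCY002 against BY4741 had 2 higher. In the same order the medians on that scale were -0.09, 0.06 and -0.07 for all genes and -0.02, 0.14 and 0.03 for the 9. LCY002 against BY4741 in galactose then had all 9 lower, at a median of -0.24 for the 9 and -0.09 for all genes. With RLE size factors LCY001 against BY4741 in ethanol/glycerol had 1 higher and 2 lower. Leaving out 1 library left 3 to 5 genes called for LCY002 against LCY001 in glucose, with 3 without LCY002 replicate 1, and 3 or 4 for LCY001 against BY4741 in glucose, with 3 without LCY001 replicate 1 or 2.

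**Figure D3:**
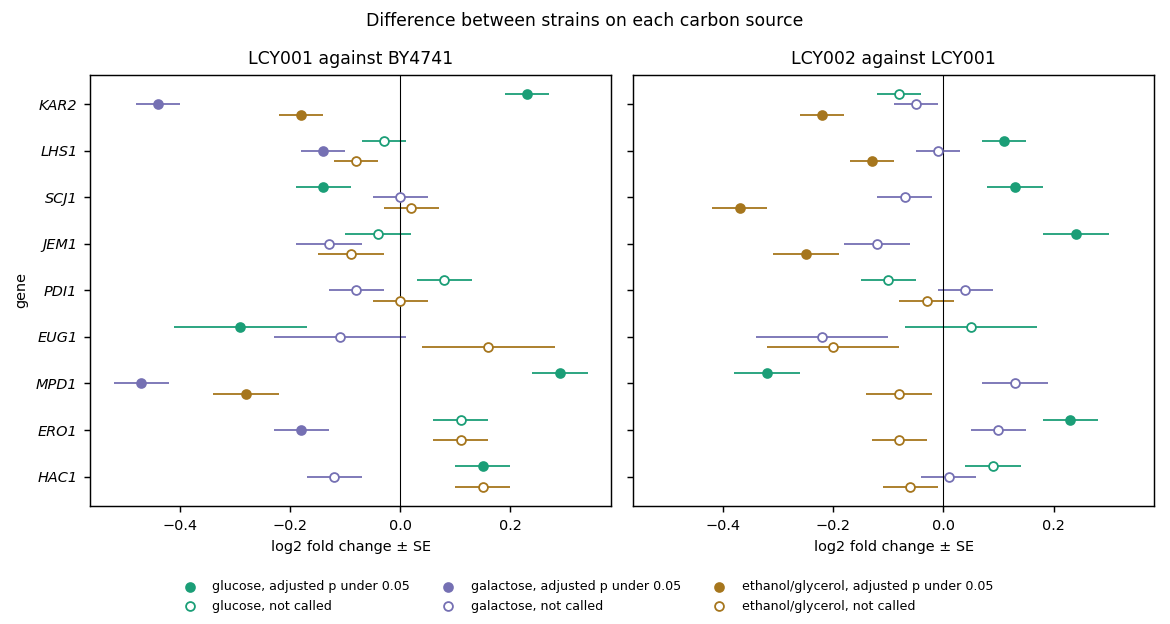
Log2 fold changes ± SE (horizontal axis) of the 9 genes between strains, LCY001 against BY4741 on the left and LCY002 against LCY001 on the right, for each carbon source, filled where the adjusted p is below 0.05. KAR2 and MPD1 lie above 0 in glucose (0.23 and 0.29) and below 0 in galactose (-0.44 and -0.47) in LCY001 against BY4741.

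Whether a strain difference itself changed with the carbon source was tested as an interaction. For LCY001 against BY4741, the difference in galactose minus that in glucose was lower than 0 for 5 of the 9 genes, KAR2, PDI1, MPD1, ERO1 and HAC1 (all genes 50.9% called, 26.5% higher and 24.4% lower). For ethanol/glycerol it was lower for KAR2 and MPD1 and higher for EUG1 (all genes 46% called, 22.7% higher and 23.3% lower). For LCY002 against BY4741 with galactose, 6 were lower and 0 higher, beside 11.2% of all genes called, 5.41% higher and 5.74% lower. That comparison with ethanol/glycerol also had 6 lower (all genes 39.5% called, 18.1% higher and 21.5% lower). For LCY002 against LCY001, SCJ1 and JEM1 were lower and MPD1 higher with galactose (all genes 47.3% called, 23.5% higher and 23.8% lower), and LHS1, SCJ1, JEM1 and ERO1 were lower and MPD1 higher with ethanol/glycerol (all genes 60.5% called, 28.3% higher and 32.2% lower). Without LCY001 galactose replicate 2 the galactose count was 5, and it ran from 2 to 5 over all left-out libraries. On the total count scale the ethanol/glycerol interaction of LCY001 with BY4741 had 0 higher and 3 lower, at a median of -0.08 for all genes. With RLE size factors it had 2 and 2.

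KAR2 and LHS1 encode the Hsp70 proteins of the ER lumen. KAR2 (gene ID 853418, chrX:381327-383375, plus strand) rose in galactose in BY4741 and fell there in both plasmid strains. In glucose its 3 libraries stood at 353.7, 365.5 and 348 CPM in BY4741, 401.3, 420.7 and 429.9 in LCY001, and 406.2, 384.8 and 392.6 in LCY002. For galactose they stood at 476.6, 501.6 and 546.8 CPM in BY4741, 369.9, 370.2 and 382.4 in LCY001, and 354.9, 364.4 and 368.2 in LCY002. Ethanol/glycerol gave 352.2, 359.3 and 336.1 CPM in BY4741, 316.3, 301.4 and 307.2 in LCY001, and 271, 261.8 and 263.1 in LCY002. The galactose libraries of BY4741 lie above all 24 others. In glucose the order of the strains is the other way round, with both plasmid strains above BY4741 and no overlap.

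From glucose to galactose KAR2 rose by 0.52 ± 0.04 in BY4741 (edgeR adjusted p = 7.72e-11), a fold of 1.43. It fell by 0.16 ± 0.04 in LCY001 (edgeR adjusted p = 0.00267) and by 0.12 ± 0.04 in LCY002 (edgeR adjusted p = 0.0167). Both falls lost their call on the total count scale (-0.05 each, adjusted p = 0.31 and 0.375 in edgeR), and that in LCY002 also without LCY002 glucose replicate 1 (-0.10) or galactose replicate 1 (-0.11). LCY001 was higher than BY4741 by 0.23 ± 0.04 in glucose (edgeR adjusted p = 6.27e-05) and lower in galactose (-0.44 ± 0.04, edgeR adjusted p = 7.96e-09). The interaction was -0.67 ± 0.06 (edgeR adjusted p = 1.46e-09), and with LCY002 in place of LCY001 it was -0.64 ± 0.06 (edgeR adjusted p = 3.22e-08). LCY002 was higher than BY4741 in glucose too (0.15 ± 0.04, edgeR adjusted p = 0.00747), a call lost on the total count scale (0.10, adjusted p = 0.0614 in edgeR).

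In ethanol/glycerol against glucose KAR2 fell in LCY001 (-0.44 ± 0.04) and LCY002 (-0.57 ± 0.04), with edgeR adjusted p = 7.18e-10 and 2.3e-12. The value in BY4741 was -0.03 ± 0.04 (edgeR adjusted p = 0.574) and turned to 0.16 on the total count scale, where the median of all genes was 0.23. Between the plasmid strains KAR2 was lower in LCY002 in ethanol/glycerol (-0.22 ± 0.04, edgeR adjusted p = 0.000123) and was not called in glucose (-0.08 ± 0.04, edgeR adjusted p = 0.115). On the total count scale that glucose value was called (-0.19). The ethanol/glycerol interaction of LCY002 against LCY001 was -0.14 ± 0.06 and not called (edgeR adjusted p = 0.0572). It was called with RLE size factors and in DESeq2 (-0.15 each), and in some fits without 1 library. LCY001 was lower than BY4741 in ethanol/glycerol by -0.18 ± 0.04 (edgeR adjusted p = 0.00656), a call lost in the fit of only those libraries (edgeR adjusted p = 0.0761). The ethanol/glycerol interactions against BY4741 were -0.41 ± 0.06 for LCY001 and -0.55 ± 0.06 for LCY002.

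LHS1 (gene ID 853789, chrXI:296430-299075, plus strand), an Hsp70 relative that acts as a nucleotide exchange factor for Kar2, moved within a narrower range. Its means were 126.8 ± 1.94 CPM in BY4741, 124.1 ± 3.46 in LCY001 and 133.7 ± 3.77 in LCY002 in glucose. They were 126.7 ± 1.93, 115.1 ± 5.66 and 114.1 ± 1.41 CPM in galactose. In ethanol/glycerol they were 102.5 ± 1.77, 97.31 ± 1.26 and 88.9 ± 1.81 CPM. All 9 ethanol/glycerol libraries, 87.74 to 104 CPM, lie below all 18 others, and within them the 3 strains do not overlap. Even so, the difference of LCY001 from BY4741 in ethanol/glycerol was not called (-0.08 ± 0.04, edgeR adjusted p = 0.192).

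Against glucose LHS1 fell in ethanol/glycerol by 0.31 ± 0.04 in BY4741, 0.35 ± 0.04 in LCY001 and 0.59 ± 0.04 in LCY002 (edgeR adjusted p = 1.24e-08, 1.38e-09 and 2.8e-14). The difference between LCY002 and LCY001 was 0.11 ± 0.04 in glucose and -0.13 ± 0.04 in ethanol/glycerol, an interaction of -0.24 ± 0.05 (edgeR adjusted p = 0.000239). The glucose call was lost without LCY001 replicate 3 or LCY002 replicate 1 (0.09 each), in the fit of only those libraries (0.09) and on the total count scale (0.00). In galactose LHS1 fell in LCY002 (-0.23 ± 0.04) and in LCY001 (-0.11 ± 0.04). The second call was lost without LCY001 glucose replicate 1 (-0.09) or galactose replicate 2 (-0.09) or 3 (-0.08), in the fit of only those libraries (-0.12), and on the total count scale, where the value was 0 to 2 decimals. In BY4741 galactose against glucose was not called (edgeR adjusted p = 0.979), and on the total count scale it was 0.12 beside 0.13 for all genes. LCY002 was lower than BY4741 in galactose (-0.15 ± 0.04), as was LCY001 (-0.14 ± 0.04), the call for LCY001 being lost on the total count scale (-0.09).

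SCJ1 and JEM1 encode J proteins, the partners that stimulate the ATPase of Kar2, and in BY4741 and LCY001 they moved in opposite directions with the carbon source. SCJ1 (gene ID 855254, chrXIII:695350-696483, plus strand) in glucose stood at 118.6, 112.7 and 113.2 CPM in BY4741, 103.5, 103.1 and 105.9 in LCY001, and 113.4, 108.8 and 119.6 in LCY002. Galactose gave 90.85, 89.15 and 93.55 CPM in BY4741, 90.24, 86.94 and 96.06 in LCY001, and 89.47, 83.92 and 86.8 in LCY002. Ethanol/glycerol gave 66.59, 66.82 and 75.16 CPM in BY4741, 68.14, 68.7 and 74.86 in LCY001, and 55.76, 57.13 and 51.08 in LCY002. The 3 media form 3 bands that do not overlap in any strain, glucose highest and ethanol/glycerol lowest, and LCY002 lies below the other strains in ethanol/glycerol.

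From glucose to ethanol/glycerol SCJ1 fell by 0.72 ± 0.05 in BY4741, 0.56 ± 0.05 in LCY001 and 1.06 ± 0.05 in LCY002 (edgeR adjusted p = 8.37e-13, 2.11e-10 and 4.02e-16). To galactose it fell by 0.33 ± 0.05, 0.19 ± 0.05 and 0.39 ± 0.05 in the same order, the call in LCY001 being lost on the total count scale (-0.09). LCY002 was below LCY001 in ethanol/glycerol (-0.37 ± 0.05, edgeR adjusted p = 2.4e-06) and above it in glucose (0.13 ± 0.05, edgeR adjusted p = 0.0343), an interaction of -0.50 ± 0.07 (edgeR adjusted p = 2.4e-06). That glucose call was lost when LCY001 replicate 1 (0.12) or 2 (0.12) was left out, when LCY002 replicate 1 (0.13) or 3 (0.09) was, and on the total count scale (0.02). LCY001 was below BY4741 in glucose (-0.14 ± 0.05), a call lost without BY4741 replicate 1 (-0.12), without LCY001 replicate 1 (-0.14) or 2 (-0.13), and on the total count scale (-0.08).

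JEM1 (gene ID 853372, chrX:303181-305118, plus strand), which also serves nuclear fusion during mating, was the member that rose on both other carbon sources in BY4741 and LCY001. In glucose it stood at 66.4, 72.57 and 75.32 CPM in BY4741, 65.03, 70.15 and 73.9 in LCY001, and 82.44, 81.46 and 83.41 in LCY002. Galactose levels were 95.07, 97.94 and 97.18 CPM in BY4741, 93.92, 86.88 and 83.7 in LCY001, and 72.85, 84.24 and 86.87 in LCY002. Ethanol/glycerol levels were 97.85, 109.3 and 99.64 CPM in BY4741, 95.17, 97.38 and 96.32 in LCY001, and 81.59, 83.66 and 78.16 in LCY002. The 3 media overlap in LCY002, while glucose lies below both other media without overlap in BY4741 and LCY001.

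In galactose JEM1 rose by 0.44 ± 0.06 in BY4741 and by 0.34 ± 0.06 in LCY001 (edgeR adjusted p = 4.38e-07 and 2.41e-05), and in ethanol/glycerol by 0.52 ± 0.06 and 0.47 ± 0.06 (edgeR adjusted p = 9.71e-09 and 7.73e-08). In LCY002 the values were -0.02 ± 0.06 for both (edgeR adjusted p = 0.795 and 0.726), the second turning to 0.15 on the total count scale beside 0.21 for all genes. LCY002 was above LCY001 in glucose (0.24 ± 0.06, edgeR adjusted p = 0.00151) and below it in ethanol/glycerol (-0.25 ± 0.06, edgeR adjusted p = 0.000824). The interactions of these strains were -0.36 ± 0.08 with galactose and -0.49 ± 0.08 with ethanol/glycerol, and with BY4741 in place of LCY001 -0.46 ± 0.08 and -0.54 ± 0.08. On the total count scale the glucose differences of LCY002 from LCY001 (0.14) and from BY4741 (0.16, against 0.21 ± 0.06) lost their calls, the second also without BY4741 replicate 1 (0.16). SCJ1 and JEM1 thus both had their LCY002 interactions with LCY001 below 0 in both media, -0.20 ± 0.07 for SCJ1 with galactose (edgeR adjusted p = 0.025). That last call was lost without LCY001 galactose replicate 3 (-0.16), LCY002 glucose replicate 3 (-0.16) or LCY002 galactose replicate 2 (-0.18).

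Among the disulfide enzymes, PDI1 (gene ID 850314, chrIII:48653-50221, minus strand) encodes the essential protein disulfide isomerase. Of all genes, 11.5% to 59.8% were called per strain comparison, and the share called in 0 of the 9 was not computed. PDI1 differed by carbon source and was called in 0 of the 9 strain comparisons. Its unadjusted p was below 0.05 in 1 of them, LCY002 against LCY001 in glucose (-0.10 ± 0.05 in edgeR), which was called in the fit of only those libraries (-0.11) and on the total count scale (-0.21), while DESeq2 called 0. With total counts LCY001 against BY4741 in glucose (0.14) and LCY002 against BY4741 in galactose (-0.14) were called too. Means were 1347 ± 58.2, 1427 ± 33.9 and 1332 ± 12.6 CPM in glucose for BY4741, LCY001 and LCY002. Galactose gave 1321 ± 52.9, 1246 ± 38.6 and 1279 ± 51 CPM, and ethanol/glycerol 1062 ± 47.9, 1061 ± 61.7 and 1039 ± 20.4 CPM. The 9 ethanol/glycerol libraries, 1000 to 1124 CPM, lie below all 18 others.

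PDI1 fell from glucose to ethanol/glycerol by 0.34 ± 0.05 in BY4741, 0.43 ± 0.05 in LCY001 and 0.36 ± 0.05 in LCY002 (edgeR adjusted p = 1.79e-07, 4.74e-09 and 8.28e-08). In galactose it fell in LCY001 (-0.20 ± 0.05, edgeR adjusted p = 0.00079), a call lost on the total count scale (-0.09, adjusted p = 0.0775 in edgeR). Its interaction of LCY001 against BY4741 with galactose was -0.17 ± 0.07 (edgeR adjusted p = 0.0368). This call was lost with RLE size factors (-0.15) and without BY4741 glucose replicate 1 (-0.16) or 3 (-0.14), BY4741 galactose replicate 2 (-0.16) or 3 (-0.14), LCY001 glucose replicate 2 (-0.15), or LCY001 galactose replicate 1 (-0.15) or 2 (-0.16).

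MPD1 (gene ID 854462, chrXV:852121-853077, minus strand), a smaller member of the disulfide isomerase family, had its highest group in the same place as KAR2, BY4741 in galactose. In glucose it stood at 56.89, 60.42 and 56.49 CPM in BY4741, 71.12, 72.56 and 68.66 in LCY001, and 54.96, 55.37 and 59.71 in LCY002. With galactose it stood at 76.37, 75.39 and 81.37 CPM in BY4741, 54.13, 57.96 and 56.1 in LCY001, and 63.55, 57.47 and 62.47 in LCY002. With ethanol/glycerol it stood at 47.07, 49.26 and 46.45 CPM in BY4741, 39.35, 41.85 and 36.48 in LCY001, and 37.28, 34.69 and 39.65 in LCY002. The BY4741 galactose libraries lie above all others, and LCY001 in glucose lies above both other strains in that medium.

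From glucose to galactose MPD1 rose by 0.42 ± 0.05 in BY4741 and fell by 0.34 ± 0.05 in LCY001 (edgeR adjusted p = 1.59e-07 and 7.9e-06). LCY002 had 0.11 ± 0.06 (edgeR adjusted p = 0.092), which was called without LCY002 glucose replicate 3 or galactose replicate 2 (0.15 each) and on the total count scale (0.19). The difference of LCY001 from BY4741 was called in each medium, at 0.29 ± 0.05 in glucose, -0.47 ± 0.05 in galactose and -0.28 ± 0.06 for ethanol/glycerol. The interactions were -0.76 ± 0.08 with galactose and -0.57 ± 0.08 with ethanol/glycerol (edgeR adjusted p = 9.74e-09 and 2.92e-06). LCY002 was below LCY001 in glucose (-0.32 ± 0.06, edgeR adjusted p = 2.28e-05), and its interactions with LCY001 were 0.45 ± 0.08 with galactose and 0.24 ± 0.08 with ethanol/glycerol. From glucose to ethanol/glycerol MPD1 fell by 0.85 ± 0.06 in LCY001, 0.61 ± 0.06 in LCY002 and 0.28 ± 0.06 in BY4741, the last call being lost on the total count scale (-0.09).

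EUG1 (gene ID 852130, chrIV:1478608-1480161, plus strand), a disulfide isomerase relative of PDI1, gave few calls that held. Its libraries ran from 777.4 to 1358 CPM, and 8 of the 8 neighbouring pairs in the order of its group means overlap. The highest group mean was 1291 ± 89.4 CPM in BY4741 in glucose and the lowest 858.4 ± 70.8 in LCY002 in galactose. In BY4741 in galactose 1 library stood at 1319 CPM and the other 2 at 948.1 and 956.5.

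EUG1 fell from glucose to ethanol/glycerol in BY4741 (-0.46 ± 0.12, edgeR adjusted p = 0.00185), a call lost on the total count scale (-0.27). Galactose against glucose was lower in LCY002 (-0.35 ± 0.12, edgeR adjusted p = 0.0189), a call lost on that scale (-0.27) and without LCY002 glucose replicate 1 (-0.26) or galactose replicate 3 (-0.28). In BY4741 it was -0.26 ± 0.12 (edgeR adjusted p = 0.0629). It was called there without the galactose library at 1319 CPM, replicate 1 (-0.44), without glucose replicate 1 (-0.32), with RLE size factors and in DESeq2 (-0.30 each). Ethanol/glycerol against glucose in LCY002 was -0.25 ± 0.12 (edgeR adjusted p = 0.0597). That value was called with RLE size factors and in DESeq2 (-0.28 each), and without LCY002 ethanol/glycerol replicate 3 (-0.38) or glucose replicate 3 (-0.31). LCY001 was below BY4741 in glucose (-0.29 ± 0.12, edgeR adjusted p = 0.0483) and LCY002 below BY4741 in galactose (-0.32 ± 0.12, edgeR adjusted p = 0.042). The first was lost without BY4741 replicate 2 (-0.25) or 3 (-0.27) or LCY001 replicate 1 (-0.28) or 2 (-0.20), with total counts as the scale (-0.24) and without the filter on low counts (edgeR adjusted p = 0.0505). The second was lost without BY4741 replicate 1 (-0.15) or LCY002 replicate 2 (-0.35) or 3 (-0.26), and in the fit of only those libraries (edgeR adjusted p = 0.186). The interaction of LCY001 against BY4741 with ethanol/glycerol was 0.46 ± 0.17 (edgeR adjusted p = 0.0363), a call that ended on removal of any 1 of 9 libraries (0.36 to 0.47) and with total counts as the scale (0.38).

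ERO1 (gene ID 854909, chrXIII:11483-13174, minus strand) encodes the oxidase that supplies Pdi1 with oxidising equivalents. In glucose it stood at 159, 153.5 and 149.5 CPM in BY4741, 173, 164.4 and 160.9 in LCY001, and 197.6, 193.5 and 194.9 in LCY002. Its galactose libraries were at 174.3, 183.6 and 180.9 CPM in BY4741, 166.8, 146.8 and 163 in LCY001, and 169.2, 169.6 and 172.7 in LCY002. Its ethanol/glycerol libraries were at 89.32, 94.39 and 102.1 CPM in BY4741, 109.8, 96.08 and 103.1 in LCY001, and 95.43, 101.8 and 94.96 in LCY002. The 9 ethanol/glycerol libraries lie below all 18 others, and LCY002 in glucose lies above every other group.

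From glucose to ethanol/glycerol ERO1 fell by 0.69 ± 0.05 in BY4741, 0.69 ± 0.05 in LCY001 and 1.00 ± 0.05 in LCY002 (edgeR adjusted p = 2.01e-12, 2.64e-12 and 6.15e-16). Galactose against glucose was higher in BY4741 (0.22 ± 0.05, edgeR adjusted p = 0.000376), lower in LCY002 (-0.20 ± 0.05, edgeR adjusted p = 0.0015) and not called in LCY001 (-0.06 ± 0.05, edgeR adjusted p = 0.28). In glucose LCY002 was higher than LCY001 by 0.23 ± 0.05 and than BY4741 by 0.34 ± 0.05 (edgeR adjusted p = 0.000326 and 4.67e-06). In galactose LCY001 was lower than BY4741 (-0.18 ± 0.05), a call lost without LCY001 replicate 2 (-0.12). The interaction of LCY002 against BY4741 was -0.42 ± 0.07 with galactose and -0.31 ± 0.07 with ethanol/glycerol, and that of LCY002 against LCY001 with ethanol/glycerol was -0.31 ± 0.07.

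HAC1, the regulator, had the second narrowest range of the 9 after PDI1. In glucose it stood at 339.8, 338.9 and 354.4 CPM in BY4741, 364.7, 365.9 and 417.8 in LCY001, and 397.3, 416.3 and 408.6 in LCY002. The galactose libraries were at 395.3, 405.9 and 428.7 CPM in BY4741, 372.3, 371 and 388.6 in LCY001, and 399.8, 370.2 and 370.9 in LCY002. The ethanol/glycerol libraries were at 288.6, 296.1 and 293.3 CPM in BY4741, 316.2, 341.6 and 315.1 in LCY001, and 326.7, 300.6 and 307.2 in LCY002. BY4741 lies below both plasmid strains in glucose and in ethanol/glycerol, and it has the highest mean in galactose, where it overlaps LCY002. In ethanol/glycerol neither difference from BY4741 was called (LCY001 0.15 ± 0.05, LCY002 0.09 ± 0.05, edgeR adjusted p = 0.0517 and 0.119). That of LCY001 was called with RLE size factors and in DESeq2 (0.15 each).

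HAC1 fell from glucose to ethanol/glycerol by 0.23 ± 0.05 in BY4741, 0.24 ± 0.05 in LCY001 and 0.39 ± 0.05 in LCY002 (edgeR adjusted p = 0.000108, 9.06e-05 and 5.95e-08). The fall in BY4741 was lost on the total count scale (-0.05, adjusted p = 0.398 in edgeR). In galactose HAC1 rose in BY4741 (0.25 ± 0.05, edgeR adjusted p = 7.22e-05) and was not called in LCY001 (-0.02 ± 0.05) or LCY002 (-0.10 ± 0.05), the last being called without LCY002 galactose replicate 1 (-0.14), in the fit of only those libraries, with RLE size factors and in DESeq2 (-0.13 each). In glucose HAC1 was above BY4741 by 0.24 ± 0.05 in LCY002 and by 0.15 ± 0.05 in LCY001 (edgeR adjusted p = 0.000331 and 0.0106), the second call being lost without LCY001 replicate 3 (0.09), the library at 417.8 CPM. Without that library HAC1 was also called higher in LCY002 than in LCY001 (0.16, against 0.09 ± 0.05). The interactions with galactose were -0.27 ± 0.07 for LCY001 against BY4741 and -0.35 ± 0.07 for LCY002 against BY4741 (edgeR adjusted p = 0.00195 and 0.00104). Between LCY002 and LCY001 in galactose HAC1 had 0.01 ± 0.05, which turned to -0.13 on the total count scale, the same as the median of all genes.

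By the order of the 9 group means, KAR2, MPD1 and HAC1 each had BY4741 in galactose first, while LHS1 and ERO1 had LCY002 in glucose first. For KAR2 and MPD1 that group did not overlap the next. For HAC1 its mean of 410 CPM was close to 407.4 CPM in LCY002 in glucose, and the libraries overlap. Over the 9 group means of log2(CPM + 1), Pearson's r with KAR2 was 0.936 for MPD1, 0.826 for LHS1, 0.768 for HAC1, 0.763 for ERO1, 0.755 for PDI1, 0.682 for SCJ1, 0.294 for EUG1 and 0.026 for JEM1. With HAC1 it was 0.958 for ERO1, 0.835 for PDI1, 0.811 for LHS1, 0.795 for MPD1, 0.727 for SCJ1, 0.206 for EUG1 and -0.284 for JEM1. JEM1 and EUG1 thus stood furthest from both. Among 5425 other genes with a mean of at least 5 CPM, those most like KAR2 were ALO1 and SEC31 (0.946 each), YVC1 (0.928), HNT2 (0.912) and PUS6 (0.900). SEC31 encodes a coat protein of the COPII vesicles that leave the ER. Those most like HAC1 were REV7 (0.938), SAY1 (0.928), EMA19 (0.927), HXT8 (0.924) and YJR112W-A (0.921). These correlations describe 9 means that share media and strains, and they carry no test.

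Other genes of the secretory pathway were counted from lists that do not hold the 9. Of all genes, 43.7%, 40.2% and 43.2% were called higher in ethanol/glycerol against glucose in BY4741, LCY001 and LCY002, and 37.7%, 37.9% and 40.4% lower. In ethanol/glycerol against glucose the 21 translocation and signal peptide genes, which bring proteins into the ER, had 19 lower in BY4741, 18 in LCY001 and 20 in LCY002, with 0 higher and medians of -0.57, -0.47 and -0.53. SEC63, the J protein of the translocon and a partner of Kar2, fell by 0.87 ± 0.03 in BY4741 and 0.97 ± 0.03 in LCY002. Its value in LCY001 is not given here, as up to 3 called genes are named per list and comparison. Of 21 N-glycosylation genes tested, 17, 15 and 17 were lower and 3, 1 and 1 higher in the 3 strains (medians -0.35, -0.32 and -0.49). ALG5, the dolichyl phosphate glucosyltransferase gene, fell by 0.87 ± 0.07, 0.78 ± 0.07 and 1.17 ± 0.07. Of 15 COPII genes 11, 12 and 12 were lower and 1, 1 and 0 higher (medians -0.32, -0.29 and -0.33), and of 6 O-mannosyltransferase genes 4 were lower in each strain and 2, 1 and 1 higher (medians -0.33, -0.30 and -0.51). These medians stayed below 0 on the total count scale, at -0.38, -0.36 and -0.36 for translocation, -0.16, -0.20 and -0.32 for N-glycosylation, -0.13, -0.17 and -0.16 for COPII and -0.14, -0.19 and -0.34 for O-mannosylation. The splits whose share of higher calls moved there by over 10 percentage points were 2 higher and 16 lower for translocation in BY4741 and in LCY001, 3 and 15 for N-glycosylation in LCY002, 3 and 8 for COPII in BY4741 and in LCY002, and 2 and 4 for O-mannosylation in LCY002.

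The 14 other folding genes of the ER did not move one way. In ethanol/glycerol 7, 5 and 5 were higher and 4, 7 and 8 lower, with medians of 0.03, -0.07 and -0.18 (0.22, 0.04 and -0.01 on the total count scale, with 9, 7 and 6 higher and 2, 3 and 4 lower). FMO1, an ER thiol oxidase gene, rose by 1.27 ± 0.09 in BY4741, 0.82 ± 0.08 in LCY001 and 1.05 ± 0.08 in LCY002, and ERV2, another oxidase gene, by 0.92 ± 0.12, 0.57 ± 0.12 and 1.04 ± 0.12. ERO1, the main oxidase gene, fell in the same comparisons. Of 17 degradation genes, which clear misfolded proteins from the ER, 6, 4 and 10 were higher and 4, 8 and 4 lower (medians 0.08, -0.05 and 0.16), and on the total count scale 12, 7 and 12 higher and 1, 5 and 2 lower. UBX2, which recruits Cdc48 to the ER membrane, rose by 0.60 ± 0.05, 0.44 ± 0.05 and 0.76 ± 0.05. Among 10 genes of unfolded protein response signalling 4, 3 and 3 were higher and 5, 4 and 4 lower (medians -0.05, 0.00 and 0.01). On the total count scale 5, 6 and 6 were higher and 2, 4 and 2 lower. Beside these lists, 81.4%, 78.1% and 83.5% of all genes were called with TMM in BY4741, LCY001 and LCY002. TRL1, the ligase that joins the HAC1 exons, fell by 0.62 ± 0.05 in LCY002. Up to 3 called genes are named per list and comparison, and the TRL1 values in BY4741 and LCY001 are not given here.

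**Figure D4:**
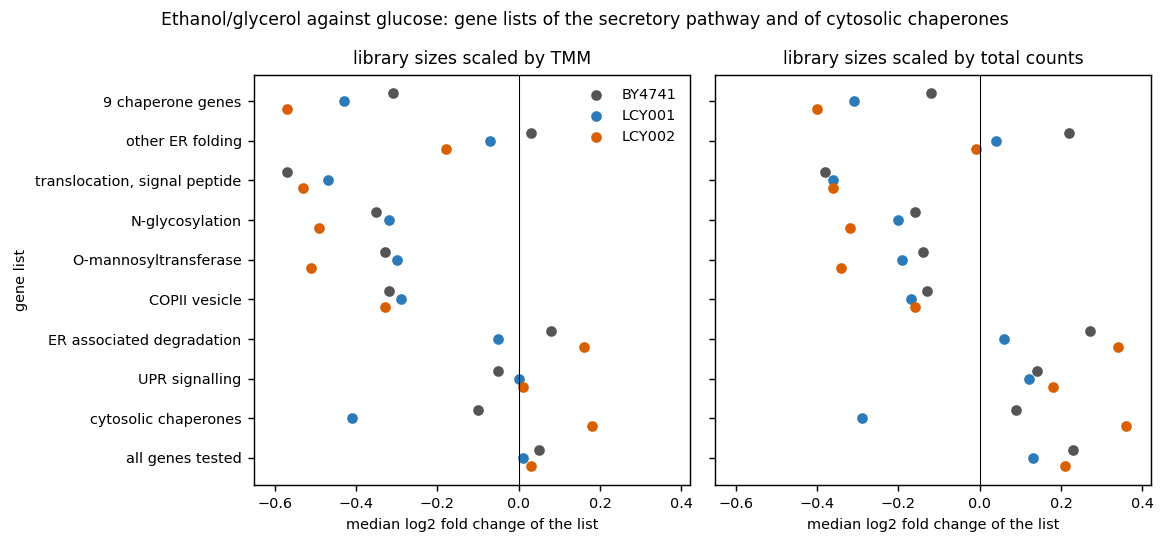
Median log2 fold change (horizontal axis) of each gene list in ethanol/glycerol against glucose in the 3 strains, with library sizes scaled by TMM on the left and by total counts on the right. The 9 genes (labelled chaperone genes, though HAC1 is not one) and the translocation, N-glycosylation, O-mannosyltransferase and COPII lists lie below 0 on both scales. The median of all genes moves from 0.05 to 0.23 in BY4741.

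Chaperone genes of the cytosol, many of them targets of heat shock factor, also differed between the strains in both directions. For LCY001 against BY4741 in glucose 12 of 18 were higher and 3 lower (median 0.26, 55.4% of all genes called). In galactose 2 were higher and 6 lower (median -0.02, 38.9% of all genes called). In ethanol/glycerol 4 were higher and 3 lower (median -0.05, 11.5% of all genes called). HSP104, the disaggregase gene, fell by 1.79 ± 0.09 in LCY001 against BY4741 in galactose. For LCY002 against LCY001 in glucose, 4 were higher and 11 lower (median -0.29, 53.7% of all genes called). In galactose 14 were higher and 0 lower (median 0.46, 38.2% of all genes called). In ethanol/glycerol 10 were higher and 7 lower (median 0.18, 59.8% of all genes called). On the total count scale LCY002 against LCY001 in glucose was 2 and 13, and LCY001 against BY4741 in galactose was 4 and 6. Beside these, KAR2, whose window holds a heat shock element match, was 0.23, -0.44 and -0.18 in glucose, galactose and ethanol/glycerol for LCY001 against BY4741. For LCY002 against LCY001 it was -0.08, -0.05 and -0.22 in the same order. The part of the cytosolic chaperone differences in the ER values was not tested.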

How the data were processed

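The authors deposited, for each of the 27 libraries, an expected count, a TPM value, a length and an effective length per gene. Tools listed in the submitters' processing notes are RSEM 1.2.8, Bowtie2 2.2.5 and HISAT2 2.1.0, with R64 as genome build; settings are not given in the sources used here. RSEM shares reads between similar genes and transcripts, which can move the values of HAC1 and EUG1. The deposited expected counts were rounded to whole numbers, filtered with filterByExpr, scaled by TMM and fitted in 1 model with 9 groups by edgeR 4.0.16 (robust quasi-likelihood F test, limma 3.58.1, R 4.3.3), with contrasts for carbon source, strain and interaction, and p-values adjusted by the Benjamini-Hochberg method over 5692 genes. Deposited TPM values served for levels between genes. A table of FPKM values for the series was not used. The code was tested on simulated data. Sequences were read from the R64 reference, and 5980 of 5995 gene IDs matched a name (Python 3.11.15).

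The members and lists were chosen with earlier results of these data known. All 9 members are named, with up to 3 called genes of largest change per list, the 5 genes most like KAR2 and HAC1, and the label checks. Totals of 14484847 to 16219263 counts set the counting error. Replicates came from separate colonies and 0 pairs held identical values. Alternatives were RLE size factors, total counts, TMM without the array genes, no filter, a replicate block, only the libraries compared, DESeq2 1.42.0 and leaving out each library.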

Additional observations from a re-analysis of the deposited data

Results flagged for a closer look

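For each of the 9 genes, in at least 1 comparison, the strain difference itself changed with the carbon source by the interaction test in edgeR, 28 results in all, beside 11.2% to 60.5% of all genes called in the 6 interactions. For PDI1 and EUG1 this rests on 1 call each, which ended on leaving out any 1 of 7 libraries for PDI1 and any 1 of 9 for EUG1. The 11.2% to 60.5% are shares per interaction. The share of all genes called in at least 1 of the 6 was not computed and cannot be below 60.5%. The count of 9 of 9 is therefore not shown to be particular to these genes. Each value is the strain difference in the named medium minus that in glucose, on the log2 scale. With galactose, LCY001 against BY4741 gave -0.67 for KAR2, -0.17 for PDI1, -0.76 for MPD1, -0.29 for ERO1 and -0.27 for HAC1. With ethanol/glycerol the same strains gave -0.41 for KAR2, 0.46 for EUG1 and -0.57 for MPD1.

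LCY002 against BY4741 gave -0.64 for KAR2, -0.23 for LHS1, -0.46 for JEM1, -0.31 for MPD1, -0.42 for ERO1 and -0.35 for HAC1 with galactose. It gave -0.55 for KAR2, -0.28 for LHS1, -0.34 for SCJ1, -0.54 for JEM1, -0.32 for MPD1 and -0.31 for ERO1 with ethanol/glycerol. LCY002 against LCY001 gave -0.20 for SCJ1, -0.36 for JEM1 and 0.45 for MPD1 with galactose, and -0.24 for LHS1, -0.50 for SCJ1, -0.49 for JEM1, 0.24 for MPD1 and -0.31 for ERO1 with ethanol/glycerol. The comparisons share the glucose libraries and, between strains, those of the common strain.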

How the results depend on the processing

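Of 216 values for the 9 genes (24 comparisons each), 216 kept their direction and side of the threshold with TMM without the array genes, 215 without the filter, 213 with the replicate block, 207 with RLE size factors, 206 in DESeq2 and 205 in the fit of only the libraries compared. On the total count scale 176 did, 18 calls were lost, 18 were gained and 4 values reversed: KAR2 (0.16) in ethanol/glycerol against glucose in BY4741, LHS1 (0.12) in galactose against glucose in BY4741, JEM1 (0.15) in ethanol/glycerol against glucose in LCY002 and HAC1 (-0.13) in LCY002 against LCY001 in galactose. The cause was not tested. On that scale 6 genes were called for LCY002 against LCY001 in galactose, 2 for LCY002 against BY4741 in glucose, 9 for LCY002 against BY4741 in galactose and 2 for galactose against glucose in LCY001. In the fit of only the libraries compared, 1 was called for LCY002 against LCY001 in galactose and 1 for LCY001 against BY4741 in ethanol/glycerol. Leaving out each library gave 3 to 5 for LCY002 against LCY001 in glucose, 0 to 1 in galactose, 3 to 4 for LCY001 against BY4741 in glucose, 3 to 6 for galactose against glucose in LCY002 and 2 to 5 for the interaction of LCY002 against LCY001 with galactose. Over those fits, 1545 of 1620 values kept their call, 45 lost it and 30 gained it.

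The replicate numbers did not pair the samples: same-numbered libraries of 1 strain had correlations of -0.34 to 0.13 (2 of 27 over 0.1, 10 of 27 best with their own number), and of 1 carbon source -0.28 to 0.23 (3 and 7 of 27). With the replicate block, EUG1 lost its calls for LCY001 against BY4741 in glucose (-0.29, edgeR adjusted p = 0.0571) and LCY002 against BY4741 in galactose (-0.32, edgeR adjusted p = 0.0545), and LHS1 gained the interaction of LCY002 against LCY001 with galactose (-0.12). Gene counts limit HAC1 to its total mRNA, and 3 libraries a group limit calls for EUG1, the most variable gene.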
